A study of Danio rerio with 12 samples.

Results

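The genes described here carry out mitosis and chromosome segregation: the cyclins and CDK1, mitotic kinases, the kinetochore, the spindle and its motors, the spindle assembly checkpoint, the machinery of anaphase and cytokinesis, condensin, and the transcription factor FoxM1. They were taken as a list of 55 gene names, chosen with earlier results of these data known, and found in the count tables by zebrafish gene name. Of these names, 50 matched exactly and 3 matched after the final letter was left out, and 2 matched no gene (incenp and kif4), so that 53 of the 32057 genes in the tables made up the set. The gene listed as BIRC5 stands for birc5a, and the 2 genes that are both listed as PRC1 (ENSDARG00000005993 and ENSDARG00000100918) stand for prc1a and prc1b without a record of which is which. The proliferation marker mki67 is ENSDARG00000091150.

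Messenger RNA was sequenced from entire larvae of zebrafish (Danio rerio), AB strain. The 4 groups of 3 biological replicates were larvae exposed to tritiated water (HTO) at 0.4 mGy/h and sampled at 7 days post fertilization (dpf), unexposed control larvae at 7 dpf, larvae exposed to HTO at 0.4 mGy/h and sampled at 10 dpf, and unexposed control larvae at 10 dpf. HTO is water that carries tritium, the radioactive isotope of hydrogen, which emits short-range beta particles. All larvae were raised from freshly fertilized eggs in embryo medium. The incubator of the exposed larvae stood in a glove box and that of the control larvae stood in the open room, so the effects of exposure and of the incubator cannot be told apart. How many larvae made up a library, and when exposure began, is not stated in the labels. Reads on genes numbered 19.4 to 67.3 M per library (M, 1e6 reads), with a median of 44.4 M.

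A dividing cell raises its stock of mitotic proteins in a wave that starts after DNA replication. Cyclins A and B activate CDK1, which condenses the chromosomes and starts spindle assembly. Kinetochores tie each chromosome to spindle microtubules, and the spindle assembly checkpoint holds back the anaphase-promoting complex and its activator Cdc20 until all are attached. Many of these genes are switched on together before mitosis by FoxM1 and the B-Myb complexes and are silent in resting cells, which is why their mRNA is widely used as a measure of proliferation. In larval zebrafish, dividing cells are known from the retinal margin, the brain ventricles, the gut, the thymus, the blood-forming tissue, the germ line and the epidermis. The roles given below were worked out mainly in human cells, frog eggs and yeast.

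Levels were high at 7 dpf and lower at 10 dpf, and lowest in exposed larvae at 10 dpf. The summed level of the 53 genes, in CPM (reads of a gene per 1e6 reads, with library sizes scaled by TMM), was 329.7, 314 and 362 in exposed larvae at 7 dpf, against 334, 293 and 227 in control larvae at 7 dpf. It was 93.1, 92.5 and 101 in exposed larvae at 10 dpf, against 181, 145 and 157 in control larvae at 10 dpf. The exposed and control libraries overlapped at 7 dpf. At 10 dpf each exposed library lay below each control library, and the 3 exposed libraries were closer to each other than the 3 controls were. Since the RNA came from entire larvae, fewer dividing cells and less mitotic mRNA per dividing cell cannot be told apart.

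**Figure D1:**
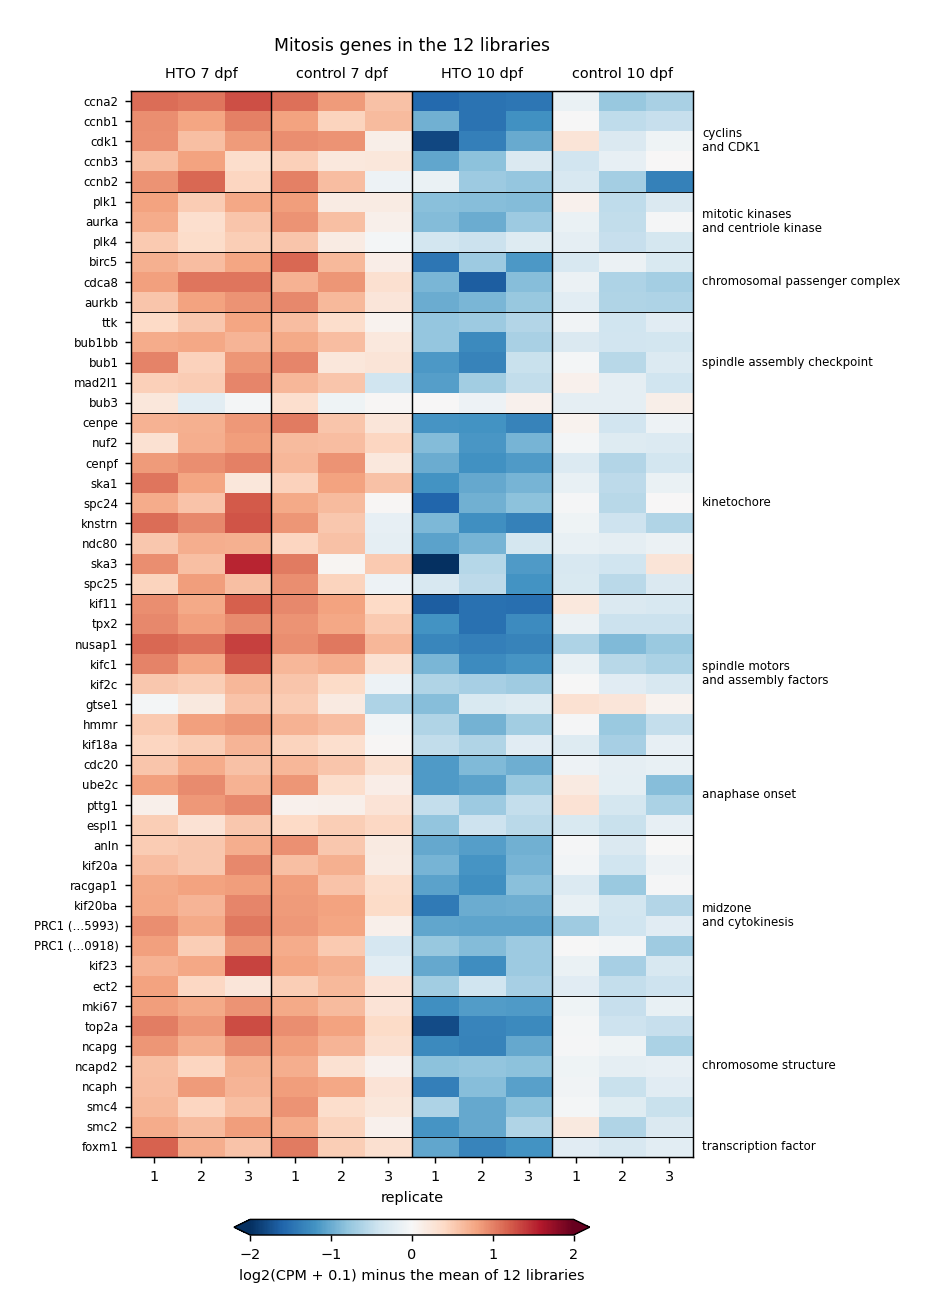
Level of each of the 53 genes (rows, grouped by role) in each of the 12 libraries (columns, HTO libraries left of the controls of the same age), as log2(CPM + 0.1) minus the gene's mean over the 12 libraries, with red above and blue below that mean. For most genes the darkest blue stands in the 3 HTO libraries at 10 dpf, whose mean over the 53 genes was -1.06, -1.02 and -0.88 on the log2 CPM scale, against -0.11, -0.42 and -0.34 in the 10 dpf controls, and bub3 hardly varied.

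The genes moved as a group over the libraries. Of the 1378 pairs among them, 1319 had a Pearson r above 0.5 over the 12 libraries, with a median r of 0.93. Their r with the mean of the other 52 was highest for ccna2 (0.99) and mki67 (0.99), and lowest for bub3 (0.20), gtse1 (0.64) and ccnb2 (0.79). These are descriptions, since the libraries share groups and ages. One library stood apart over all genes. Exposed replicate 1 at 10 dpf lay at -79.7 on the second principal component, which held 21.2% of the variance, while the other 11 libraries lay between -24.8 and 33.8. Its marker genes of gut and germ cells were low, as given further on, and results are therefore also given without it.

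Exposed larvae at 10 dpf had less mRNA of these genes than controls of the same age. By edgeR's quasi-likelihood test, with Benjamini-Hochberg adjustment over the 23075 genes tested, 22 of the 53 genes fell and 0 rose, where 7.02% of all genes fell and 4.77% rose. Since the list was chosen with earlier results of these data known, such shares describe the set and do not test it. The median log2 fold change, exposed over control, was -0.73 over the 53 genes and -0.004 over all genes. It lay below 0 for 51 of the 53. All 3 exposed libraries lay below all 3 control libraries for 40 of the 53 genes and above them for 0, where 18.4% of all genes were lower and 15.4% higher in this sense. A further 20 genes had an unadjusted p under 0.05 and did not pass the adjustment. This puts 42 of 53 under that level, where 6579 of the 23075 genes tested were. Without exposed replicate 1, the library that stood apart, 19 genes fell and the median was -0.73. The count was lowest, at 13, without control replicate 1 at 10 dpf, and highest, at 31, without control replicate 3 at 7 dpf, and 13 of the 22 genes were called in each of the 12 omissions. All 53 genes had passed the filter on low counts.

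The 22 genes that fell came from 7 of the 10 roles. They were 3 of 5 cyclin and CDK1 genes, 6 of 7 genes of chromosome structure, 4 of 8 spindle motors and assembly factors, 3 of 9 kinetochore genes, 1 of 4 genes of anaphase onset, 4 of 8 midzone and cytokinesis genes, and foxm1. None of the 3 genes of the mitotic and centriole kinases, the 3 of the chromosomal passenger complex or the 5 of the spindle assembly checkpoint passed at 10 dpf by edgeR. Of these 11, 10 had a fold change below 0, all but bub3. An unadjusted p under 0.05 was found for 8 of the 11, where 6579 of the 23075 genes tested had one. Of these 11, DESeq2 called BIRC5 and voom called bub1bb and cdca8. Over all genes, DESeq2 called 3357 and voom 3956 at 10 dpf in either direction, so these calls are not read as further support.

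**Figure D2:**
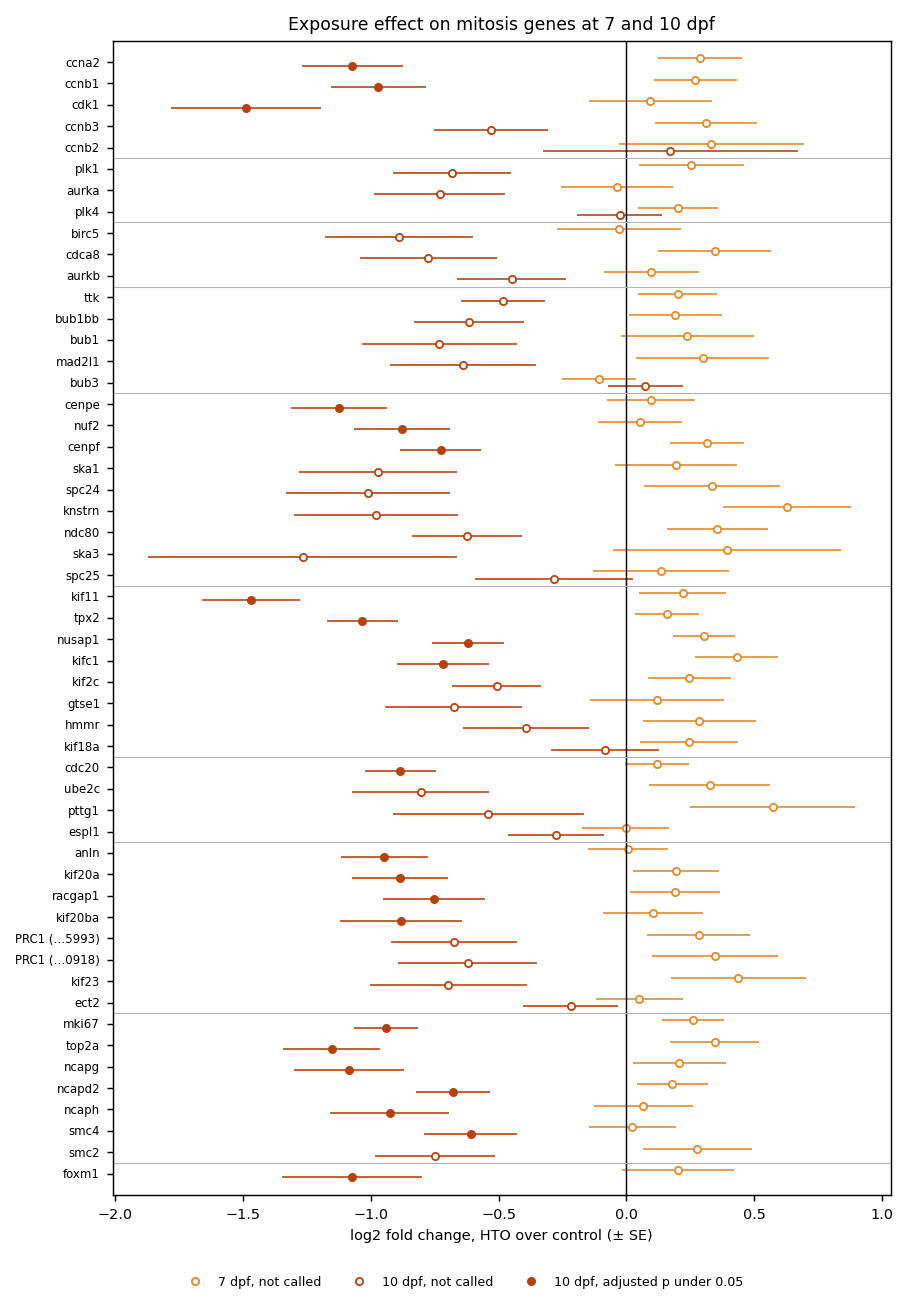
Log2 fold change, HTO over control larvae, with its SE, of the 53 genes at 7 dpf (orange) and 10 dpf (red); filled points passed the adjusted threshold of 0.05 in edgeR's quasi-likelihood test and grey lines part the roles. At 10 dpf 51 of the 53 points lie left of 0 and 22 are filled, while at 7 dpf 49 lie right of 0 and 0 are filled.

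Among the cyclins and CDK1, the kinase that drives entry into mitosis, cdk1 had the largest fall of the set. At 10 dpf it measured 0.349, 0.513 and 0.686 CPM in exposed larvae, against 1.80, 1.20 and 1.39 CPM in control larvae (log2 fold change -1.49 ± 0.29 SE, adjusted p = 0.00725). Its highest exposed library was below its lowest control. At 7 dpf cdk1 averaged 2.65 ± 0.295 CPM in exposed larvae and 2.45 ± 0.727 CPM in control larvae (SD, n = 3 each), where control replicate 3 was the low one. Cyclin A2, which acts from S phase to early mitosis, was measured at 1.05, 1.11 and 1.14 CPM in exposed larvae, against 2.96, 1.90 and 2.06 CPM in control larvae at 10 dpf (log2 fold change -1.07 ± 0.20 SE, adjusted p = 0.00521). The 3 exposed libraries nearly coincided and all lay below the controls. Cyclin B1, the main partner of CDK1, had 1.74, 1.19 and 1.45 CPM in exposed larvae, against 3.47, 2.44 and 2.51 CPM in control larvae (log2 fold change -0.97 ± 0.19 SE, adjusted p = 0.00619), again without overlap. The other B-type cyclins did not pass. For ccnb3 the log2 fold change at 10 dpf was -0.53 ± 0.22 (adjusted p = 0.137), and for ccnb2 it was 0.17 ± 0.50 (adjusted p = 0.857). The ccnb2 libraries held 0.349, 0.195 and 0.185 CPM in exposed larvae and 0.294, 0.206 and 0.0907 CPM in control larvae, which overlap widely.

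The transcription factor foxm1, which activates many of the genes in this set before mitosis, fell as well. Its reads on its own strand gave 0.539, 0.425 and 0.475 CPM in exposed larvae, against 1.02, 0.950 and 1.03 CPM in control larvae at 10 dpf (log2 fold change -1.07 ± 0.27 SE, adjusted p = 0.0241). The exposed libraries lay below the controls without overlap. At 7 dpf it had 2.89, 2.06 and 1.84 CPM in exposed larvae, against 2.61, 1.75 and 1.53 CPM in control larvae, with the groups overlapping. The call holds for the coding strand alone. More reads lay on the opposite strand over this locus, 55, 99 and 70 in exposed larvae against 57, 63 and 45 in control larvae at 10 dpf. These are raw reads, from libraries of 28.6, 57.4 and 40.0 M reads on genes in exposed larvae and 52.7, 48.7 and 31.9 M in control larvae. With unstranded counts the log2 fold change was 0.092 (adjusted p = 0.752). Those counts are not the sum of the strands. Over the 12 libraries they held 1517 reads, against 782 on the strand used and 953 on the opposite strand. The call was also lost without exposed replicate 2, exposed replicate 3 or any 1 of the 3 controls at 10 dpf, with log2 fold changes of -1.11 to -0.98 and adjusted p of 0.0533 to 0.0811.

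Genes of chromosome structure fell in 6 of 7 cases. The protein of mki67 coats mitotic chromosomes and keeps them apart, and its mRNA is the usual marker of cycling cells. At 10 dpf mki67 was at 10.96, 11.9 and 11.7 CPM in exposed larvae, against 24.4, 18.8 and 23.3 CPM in control larvae (log2 fold change -0.94 ± 0.12 SE, adjusted p = 0.000812). The exposed libraries lay within about 1 CPM of each other, below the lowest control. At 7 dpf mki67 was at 46.0, 43.7 and 48.4 CPM in exposed larvae, against 43.8, 40.1 and 31.3 CPM in control larvae, and exposed replicate 2 was just below control replicate 1. Topoisomerase II alpha, top2a, untangles sister DNA. Its level at 10 dpf was 3.99, 5.59 and 5.73 CPM in exposed larvae, against 13.6, 10.5 and 10.2 CPM in control larvae (log2 fold change -1.15 ± 0.19 SE, adjusted p = 0.00343), with no overlap. At 7 dpf it was 28.7, 25.6 and 34.9 CPM in exposed larvae, against 27.0, 24.5 and 18.2 CPM in control larvae, with the groups overlapping.

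Condensin I folds chromosomes into rods, and its 3 non-SMC subunits fell together. For ncapg, 10 dpf libraries gave 0.760, 0.725 and 0.924 CPM in exposed larvae, against 1.94, 1.86 and 1.24 CPM in control larvae (log2 fold change -1.09 ± 0.22 SE, adjusted p = 0.0076). The log2 fold change was -0.68 ± 0.15 (adjusted p = 0.0109) for ncapd2 and -0.93 ± 0.23 (adjusted p = 0.023) for ncaph, each with all exposed libraries below all controls. The SMC subunits form the core of the complex. Of these smc4 fell, by less than the others, with -0.61 ± 0.18 (adjusted p = 0.0459), and smc2 had -0.75 ± 0.24 (adjusted p = 0.0553) and overlapping libraries. The call of ncaph was lost without exposed replicate 1, exposed replicate 3 or control replicate 1 at 10 dpf (-0.89 to -0.80, adjusted p 0.0568 to 0.101). That of smc4 was lost with upper-quartile scaling (-0.58, adjusted p = 0.0509) and with 8 of the 12 libraries left out in turn, all but control replicates 1 and 3 at 7 dpf and exposed replicate 1 and control replicate 3 at 10 dpf (-0.61 to -0.49, adjusted p 0.0551 to 0.18).

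**Figure D3:**
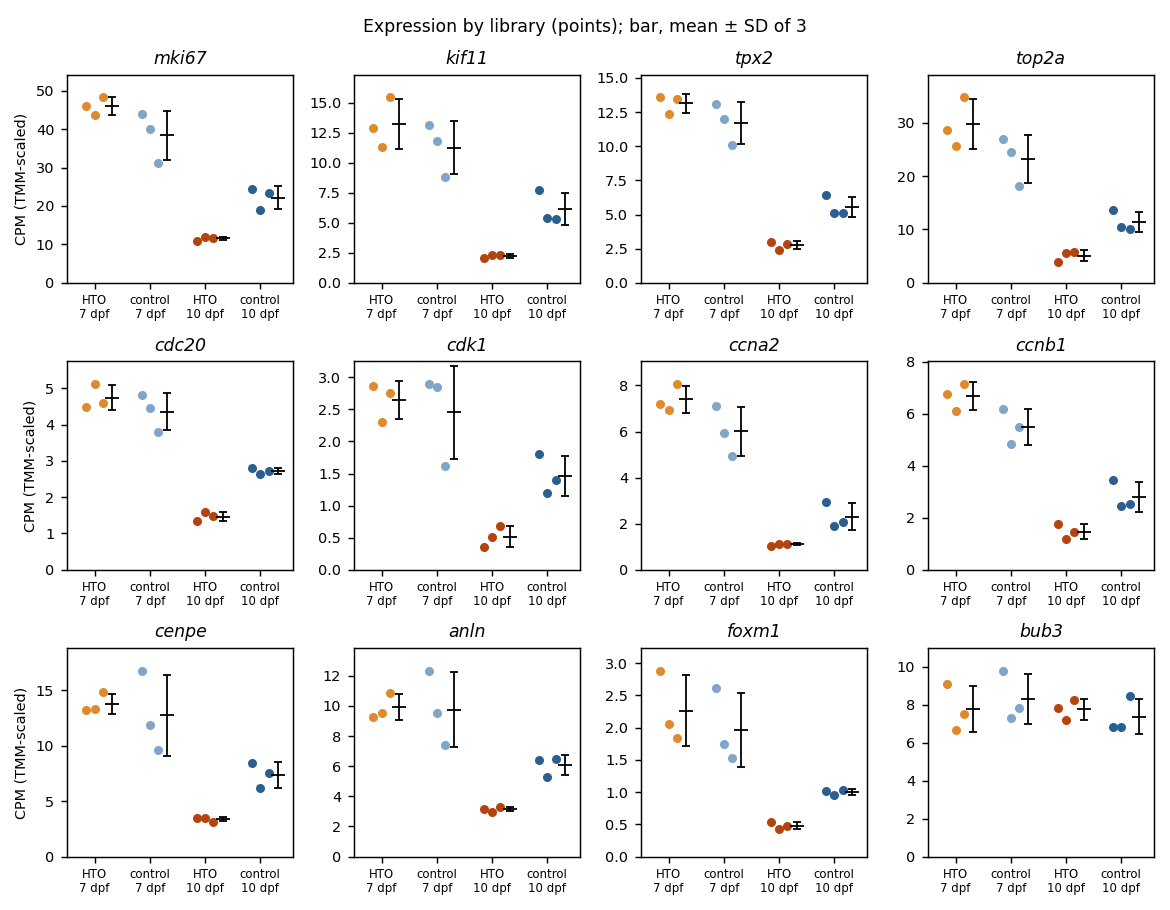
Level in CPM of 12 of the genes in each library (points, 3 per group, with HTO larvae left of control larvae at each age), with the mean and SD of the group beside them; each panel has its own axis from 0. The HTO points at 10 dpf lie below the controls of that age in all panels except bub3, whose HTO libraries read 7.80, 7.18 and 8.24 CPM and whose controls read 6.83, 6.81 and 8.44 CPM.

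The spindle motors and assembly factors included the gene with the smallest p of the set at 10 dpf, kif11. Its product Eg5 slides antiparallel microtubules and pushes the spindle poles apart. At 10 dpf kif11 had 2.06, 2.32 and 2.30 CPM in exposed larvae, against 7.71, 5.43 and 5.32 CPM in control larvae (log2 fold change -1.47 ± 0.19 SE, adjusted p = 0.000756), so that the lowest control was well above the highest exposed library. At 7 dpf the same gene had 12.9, 11.3 and 15.5 CPM in exposed larvae, against 13.1, 11.8 and 8.81 CPM in control larvae, and the groups overlapped. Tpx2 seeds microtubules around chromosomes and activates Aurora A. Its 10 dpf level was 2.98, 2.41 and 2.85 CPM in exposed larvae, against 6.42, 5.14 and 5.14 CPM in control larvae (log2 fold change -1.03 ± 0.14 SE, adjusted p = 0.000895). Its 7 dpf level was 13.6, 12.3 and 13.4 CPM in exposed larvae, against 13.1, 12.03 and 10.1 CPM in control larvae. Here too the groups parted at 10 dpf and overlapped at 7 dpf.

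Nusap1 bundles spindle microtubules, and nusap1 was at 1.996, 1.91 and 1.95 CPM in exposed larvae, against 3.29, 2.70 and 2.99 CPM in control larvae at 10 dpf (log2 fold change -0.62 ± 0.14 SE, adjusted p = 0.0143). It was 1 of the few genes with the opposite order at 7 dpf, at 11.4, 10.9 and 13.3 CPM in exposed larvae, against 9.83, 10.7 and 8.16 CPM in control larvae, where the lowest exposed library was above the highest control by a small margin. That difference did not pass the test, with 0.30 ± 0.12 (adjusted p = 0.334). The kinesin kifc1, which clusters spindle poles, fell at 10 dpf by 0.72 ± 0.18 on the log2 scale (adjusted p = 0.0223). At 10 dpf the call of nusap1 was lost without control replicate 1 (-0.53, adjusted p = 0.0707), and that of kifc1 without control replicate 1, exposed replicate 2 or exposed replicate 3 (-0.67 to -0.53, adjusted p 0.0586 to 0.111). The other 4 of the 8 did not pass. They were kif2c, a microtubule depolymerase with -0.51 ± 0.17 (adjusted p = 0.0747), gtse1 with -0.68 ± 0.27 (adjusted p = 0.118), hmmr with -0.39 ± 0.25 (adjusted p = 0.318) and kif18a, a kinesin that aligns chromosomes, with -0.08 ± 0.21 (adjusted p = 0.834).

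At the kinetochore, the motor cenpe, which carries chromosomes to the spindle equator, had 3.52, 3.48 and 3.14 CPM in exposed larvae, against 8.46, 6.15 and 7.53 CPM in control larvae at 10 dpf (log2 fold change -1.12 ± 0.19 SE, adjusted p = 0.00316). The highest exposed library was well below the lowest control. Nuf2, a subunit of the NDC80 complex that grips microtubule ends, was at 1.05, 0.831 and 1.003 CPM in exposed larvae, against 1.94, 1.65 and 1.63 CPM in control larvae (log2 fold change -0.88 ± 0.19 SE, adjusted p = 0.0106). Cenpf, a large protein of the outer kinetochore, was at 4.28, 3.68 and 3.91 CPM in exposed larvae, against 7.17, 5.74 and 6.65 CPM in control larvae (log2 fold change -0.73 ± 0.16 SE, adjusted p = 0.0118). The exposed and control libraries were apart for these genes, and the calls of nuf2 (-0.77, adjusted p = 0.056) and cenpf (-0.63, adjusted p = 0.0573) were lost without control replicate 1. At 7 dpf the 3 genes averaged 13.8 ± 0.922, 3.15 ± 0.599 and 16.6 ± 0.839 CPM in exposed larvae, and 12.7 ± 3.67, 2.99 ± 0.247 and 13.3 ± 3.14 CPM in control larvae (SD, n = 3 each; cenpe, nuf2 and cenpf in that order).

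The other 6 kinetochore genes did not pass at 10 dpf. Among the NDC80 subunits, spc24 had -1.01 ± 0.32 (adjusted p = 0.0588), ndc80 -0.62 ± 0.21 (adjusted p = 0.0757) and spc25 -0.28 ± 0.31 (adjusted p = 0.581) on the log2 scale. The SKA complex strengthens the hold of kinetochores on microtubules, and its subunits ska1 and ska3 had -0.97 ± 0.31 (adjusted p = 0.0581) and -1.27 ± 0.60 (adjusted p = 0.187). The kinastrin gene knstrn had -0.98 ± 0.32 (adjusted p = 0.0643). For 5 of these 6, all but spc25, the 3 exposed libraries lay below the 3 controls, as they did for 18.4% of all genes. The values of ska3 rest on few reads on its own strand, 0, 16 and 6 in exposed larvae against 18, 16 and 19 in control larvae, and over the 12 libraries 96.7% of the reads at ska3 and 83.6% of those at spc25 lay on the opposite strand.

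The mitotic kinases did not pass at 10 dpf, although 2 of them were ordered like the genes above. Polo-like kinase 1, which acts at centrosomes, kinetochores and the midzone, gave 1.20, 1.20 and 1.19 CPM in exposed larvae, against 2.39, 1.55 and 1.81 CPM in control larvae (log2 fold change -0.68 ± 0.23 SE, adjusted p = 0.0714). Aurora A, the kinase of spindle poles, gave 0.665, 0.601 and 0.739 CPM in exposed larvae, against 1.17, 0.888 and 1.27 CPM in control larvae for aurka (log2 fold change -0.73 ± 0.26 SE, adjusted p = 0.0802). For both genes each exposed library was below each control, an order found for 18.4% of all genes. Plk4, which starts centriole duplication and acts outside mitosis proper, gave 2.22, 2.10 and 2.40 CPM in exposed larvae, against 2.53, 2.06 and 2.24 CPM in control larvae (log2 fold change -0.03 ± 0.17 SE, adjusted p = 0.939). Its groups overlapped.

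The chromosomal passenger complex corrects faulty attachments, and all 3 of its measured genes had exposed libraries below control libraries at 10 dpf without passing the adjusted test. Over all genes tested, 18.4% were so ordered. Survivin, listed as BIRC5, had 0.412, 0.743 and 0.528 CPM in exposed larvae, against 1.02, 1.18 and 1.03 CPM in control larvae (log2 fold change -0.89 ± 0.29 SE, adjusted p = 0.0636). Borealin, cdca8, had 0.856, 0.478 and 0.898 CPM in exposed larvae, against 1.57, 1.07 and 1.03 CPM in control larvae (log2 fold change -0.78 ± 0.27 SE, adjusted p = 0.0771). Aurora B, aurkb, the kinase of the complex, had 1.14, 1.22 and 1.37 CPM in exposed larvae, against 2.04, 1.53 and 1.51 CPM in control larvae (log2 fold change -0.45 ± 0.21 SE, adjusted p = 0.185). The margins between the groups were narrow.

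In the spindle assembly checkpoint 0 of 5 genes passed at 10 dpf by edgeR's test. The kinase ttk, known as Mps1 in human cells, was at 2.31, 2.41 and 2.67 CPM in exposed larvae, against 3.84, 3.03 and 3.45 CPM in control larvae (log2 fold change -0.48 ± 0.17 SE, adjusted p = 0.0758). The gene of BubR1, bub1bb, was at 0.887, 0.601 and 0.977 CPM in exposed larvae, against 1.29, 1.20 and 1.21 CPM in control larvae (log2 fold change -0.62 ± 0.21 SE, adjusted p = 0.0786). For both of these the exposed libraries were below all controls of that age, as they were for 18.4% of all genes. The kinase gene bub1 was at 0.760, 0.654 and 1.29 CPM in exposed larvae, against 1.76, 1.20 and 1.48 CPM in control larvae (log2 fold change -0.73 ± 0.30 SE, adjusted p = 0.132), and its libraries overlapped. Mad2, mad2l1, had a log2 fold change of -0.64 ± 0.29 (adjusted p = 0.161). Bub3, which binds the checkpoint kinases, had 0.07 ± 0.15 (adjusted p = 0.778) and was the gene least like the rest of the set.

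Anaphase begins when the anaphase-promoting complex with Cdc20 marks securin and cyclin B for destruction. Its activator gene cdc20 was at 1.33, 1.59 and 1.48 CPM in exposed larvae, against 2.82, 2.64 and 2.72 CPM in control larvae at 10 dpf (log2 fold change -0.88 ± 0.14 SE, adjusted p = 0.0022). The spread in each group was small beside the gap. At 7 dpf cdc20 was at 4.50, 5.13 and 4.60 CPM in exposed larvae, against 4.82, 4.46 and 3.81 CPM in control larvae, and these overlapped. The ubiquitin-conjugating partner ube2c was at 1.08, 1.13 and 1.45 CPM in exposed larvae, against 2.82, 2.15 and 1.33 CPM in control larvae (log2 fold change -0.81 ± 0.27 SE, adjusted p = 0.0687). Securin, pttg1, was at 0.317, 0.248 and 0.317 CPM in exposed larvae, against 0.607, 0.351 and 0.272 CPM in control larvae (log2 fold change -0.54 ± 0.37 SE, adjusted p = 0.371). Control replicate 3 was low for both and overlapped the exposed libraries. Separase, espl1, which cuts the cohesin ring, had -0.27 ± 0.19 (adjusted p = 0.415).

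Of the genes of the spindle midzone and cytokinesis, anillin, anln, which scaffolds the contractile ring, was at 3.17, 2.99 and 3.30 CPM in exposed larvae, against 6.42, 5.31 and 6.503 CPM in control larvae at 10 dpf (log2 fold change -0.95 ± 0.17 SE, adjusted p = 0.00439). The kinesin kif20a, which brings the passenger complex to the midzone, was at 1.68, 1.40 and 1.69 CPM in exposed larvae, against 3.19, 2.48 and 3.09 CPM in control larvae (log2 fold change -0.88 ± 0.19 SE, adjusted p = 0.0101). Both were without overlap between the groups. The centralspindlin gene racgap1 was at 1.55, 1.38 and 1.85 CPM in exposed larvae, against 2.76, 1.98 and 3.33 CPM in control larvae (log2 fold change -0.75 ± 0.20 SE, adjusted p = 0.0288), also without overlap. Its call was lost with unstranded counts (-0.70, adjusted p = 0.0503), and 59.2% of the reads there lay on the opposite strand. Those counts are not the sum of the strands. Over the 12 libraries they held 1730 reads, against 2033 on the strand used and 2944 on the opposite strand. The call of racgap1 was also lost without exposed replicate 1, exposed replicate 2, control replicate 1 or control replicate 3 (-0.73 to -0.58, adjusted p 0.0653 to 0.0984). The related kinesin kif20ba fell by 0.88 ± 0.24 on the log2 scale (adjusted p = 0.032). That call was lost with a replicate block (-0.87, adjusted p = 0.0578) and without any 1 of the 10 dpf libraries other than control replicate 3 (-0.97 to -0.73, adjusted p 0.0538 to 0.137).

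The other 4 midzone genes did not pass. The kinesin of centralspindlin, kif23, had -0.70 ± 0.31 (adjusted p = 0.156), and the microtubule bundlers listed as PRC1 had -0.67 ± 0.25 (adjusted p = 0.0907) and -0.62 ± 0.27 (adjusted p = 0.153), the first for ENSDARG00000005993 and the other for ENSDARG00000100918. For these 3 genes the exposed libraries were all below the controls, as they were for 18.4% of all genes. The cytokinesis gene ect2 had -0.22 ± 0.19 (adjusted p = 0.475) and overlapping libraries.

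At 7 dpf none of the 53 genes passed the test between exposed and control larvae (edgeR, 0 higher and 0 lower), where 0.178% of all genes rose and 0.338% fell. DESeq2 and voom also called 0 of them. An unadjusted p under 0.05 was found for 5 of the 53, where 2744 of the 23075 genes tested had one. Those 5 were nusap1 (0.30), kifc1 (0.43), knstrn (0.63), mki67 (0.26) and cenpf (0.32), all with a log2 fold change above 0. The fold change was above 0 for 49 of the 53 genes and its median was 0.22, against -0.01 over all genes. The 3 exposed libraries lay above the 3 controls for 3 genes, nusap1, kifc1 and knstrn, where 8.15% of all genes were so ordered, and below them for 0, where 8.6% were. For knstrn these values were 2.21, 1.97 and 2.45 CPM in exposed larvae, against 1.86, 1.45 and 0.849 CPM in control larvae.

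The 7 dpf controls were spread widely, and their replicate 3 had the lowest summed level of the 6 libraries of that age. Without that library the median log2 fold change of the 53 genes was 0.08, with 38 above 0 and 15 below. Without control replicate 1, the highest control, it was 0.38, with 52 above 0.

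The effect of exposure at 10 dpf was set against that at 7 dpf by a test of the difference between the log2 fold changes. It was called for 5 of the 53 genes by edgeR, all more negative at 10 dpf, where 0.165% of all genes were called in that direction and 0.104% in the other. The difference was -1.69 ± 0.26 SE for kif11 (adjusted p = 0.0224), -1.50 ± 0.26 for top2a (adjusted p = 0.0411) and -1.20 ± 0.17 for mki67 (adjusted p = 0.0176). For tpx2 it was -1.19 ± 0.19 (adjusted p = 0.0236) and for cdc20 -1.004 ± 0.19 (adjusted p = 0.0479). The next in order of p was ccna2, with -1.36 ± 0.26 and an adjusted p of 0.0515. Over the 53 genes the difference was below 0 for 52, all but bub3, with a median of -0.97. Its median over all genes was 0.005.

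The number of genes called for this difference turned on single libraries. It was 0 without exposed replicate 1, exposed replicate 3 or control replicate 2 at 7 dpf, and 9 without control replicate 1 at 7 dpf. It was 1 without exposed replicate 2 and 2 without control replicate 1 at 10 dpf, and 3 with any 1 of exposed replicate 2 or control replicate 3 at 7 dpf and exposed replicate 3, control replicate 2 or control replicate 3 at 10 dpf left out. Without exposed replicate 1 at 10 dpf, the library that stood apart, it was 5, but cdc20 was no longer among them (-0.96, adjusted p = 0.0798). The fold changes themselves moved little, and for kif11 the difference lay between -1.83 and -1.48 over the 12 omissions. DESeq2 called 17 of the 53 genes and voom 11. Over all genes, 62 were called by edgeR, 280 by DESeq2 and 152 by voom, and edgeR called 10 to 63 over the omissions.

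With age, most of the set fell in both conditions. At 10 dpf relative to 7 dpf, 51 of 53 genes fell in exposed larvae, where 12.4% of all genes did, and 44 of 53 fell in control larvae, where 15% of all genes did. None rose in either condition, where 10.8% of all genes rose in exposed and 14.3% in control larvae. The median log2 fold change was -1.79 in exposed larvae and -0.87 in control larvae. All 3 libraries at 10 dpf lay below all 3 at 7 dpf for 52 genes in exposed larvae, where 20.2% of all genes were so ordered, and for 39 genes in control larvae, where 23.6% were. Neither condition had a gene in the opposite order, where 19.4% of all genes in exposed and 22.5% in control larvae had it. The test of the difference between these 2 age changes is the one given above. Exposed and control larvae share no library in this comparison, but the age change in controls and the exposure effect at 10 dpf share the 10 dpf control libraries.

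**Figure D4:**
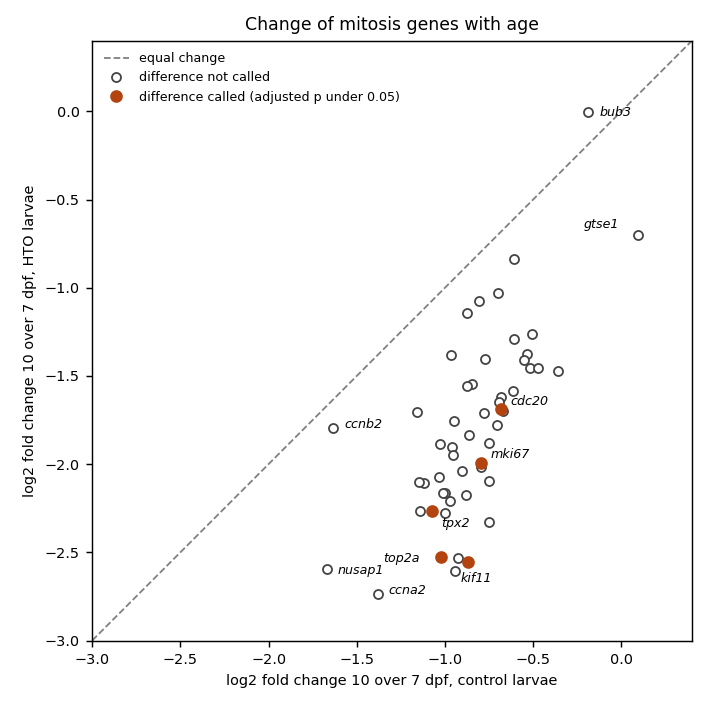
Log2 fold change of each of the 53 genes from 7 to 10 dpf in HTO larvae (vertical) against that in control larvae (horizontal), with the dashed line marking an equal change. All points but bub3 lie below the line, and the 5 filled points are the genes whose difference passed the adjusted threshold of 0.05 in edgeR.

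The steepest fall with age was that of ccna2, with -2.74 ± 0.19 (adjusted p = 1.06e-06) in exposed and -1.38 ± 0.17 (adjusted p = 8.23e-05) in control larvae on the log2 scale. The gene nusap1 had -2.59 ± 0.14 (adjusted p = 1.33e-07) in exposed and -1.67 ± 0.13 (adjusted p = 1.52e-06) in control larvae, the largest value of the set in controls. For kif11 the values were -2.56 ± 0.19 (adjusted p = 1.9e-06) in exposed and -0.87 ± 0.17 (adjusted p = 0.00234) in control larvae. For mki67 they were -1.99 ± 0.13 (adjusted p = 5.07e-07) in exposed and -0.79 ± 0.12 (adjusted p = 0.000344) in control larvae. Some genes not called between exposed and control larvae at 10 dpf fell with age, among them plk4 with -0.84 ± 0.16 (adjusted p = 0.00238) in exposed and -0.61 ± 0.16 (adjusted p = 0.0119) in control larvae, and ect2 with -1.14 ± 0.18 (adjusted p = 0.000571) in exposed and -0.87 ± 0.18 (adjusted p = 0.00241) in control larvae. The same held for ccnb2, with -1.79 ± 0.42 (adjusted p = 0.00785) in exposed and -1.63 ± 0.43 (adjusted p = 0.0114) in control larvae. The exceptions in exposed larvae were bub3, with -0.01 ± 0.15 (adjusted p = 0.985), and gtse1, with -0.70 ± 0.27 (adjusted p = 0.0798). The count in control larvae ranged from 29 to 48 with 1 library left out, the lowest without control replicate 1 at 7 dpf or control replicate 2 at 10 dpf, while that in exposed larvae stayed between 50 and 52.

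Other genes of the cell cycle were examined as lists beside these, where 7.02% of all genes fell and 4.77% rose at 10 dpf. Those lists too were chosen with earlier results of these data known. Of 65 other mitosis genes, 15 fell and 0 rose in exposed larvae at 10 dpf, with a median log2 fold change of -0.48. They included tacc3, a spindle protein, at 2.06, 2.14 and 2.53 CPM in exposed and 5.29, 4.38 and 5.02 CPM in control larvae, with -1.12 ± 0.17 (adjusted p = 0.00157). The kinase PBK had -1.64 ± 0.28 (adjusted p = 0.00351) and the checkpoint gene kntc1 -0.80 ± 0.16 (adjusted p = 0.0084). The kinesin gene listed as KIF4A (ENSDARG00000005462), which the name kif4 did not match, was at 1.46, 1.097 and 1.69 CPM in exposed and 3.15, 2.83 and 2.99 CPM in control larvae, with -1.10 and an adjusted p of 0.0145. Of 56 genes of DNA replication and licensing, 7 fell and 0 rose, with a median of -0.30. The ribonucleotide reductase gene RRM1 had -0.51 ± 0.11 (adjusted p = 0.0105), the fork protein WDHD1 -0.73 ± 0.16 (adjusted p = 0.013) and thymidine kinase TK1 -1.04 ± 0.24 (adjusted p = 0.0144). All of these p-values are adjusted over all genes. Without control replicate 1 at 10 dpf the calls of RRM1 (-0.45, adjusted p = 0.0515), WDHD1 (-0.66, adjusted p = 0.0585) and TK1 (-0.997, adjusted p = 0.0531) were lost, and that of TK1 also without exposed replicate 2 (-0.77, adjusted p = 0.053).

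The next 5 lists held regulators and cohesin, and their counts stand beside the 7.02% of all genes that fell and the 4.77% that rose at 10 dpf. An unadjusted p under 0.05 was found at that age for 6579 of the 23075 genes tested. Of 26 G1/S regulators 1 fell, the replication kinase CDC7 with -0.86 ± 0.26 (adjusted p = 0.0433), and 2 rose, a MYC gene (ENSDARG00000045695) with 0.28 ± 0.06 (adjusted p = 0.00911) and tfdp2 with 0.33 ± 0.09 (adjusted p = 0.0265). Of the 11 genes of the B-Myb and DREAM complexes, which govern many mitotic promoters, 0 passed by edgeR and 3 had an unadjusted p under 0.05, with a median of -0.20. Among them RBL2, a pocket protein of resting cells, missed the threshold by little with 0.25 ± 0.08 (adjusted p = 0.0537) and was called higher under 6 of the 8 other alternatives, DESeq2 (0.26, adjusted p = 0.0298) and voom (0.21, adjusted p = 0.0419) among them, and in 3 of the 12 omissions. Among 22 CDK inhibitors and antiproliferative genes, TOB1 rose with 0.67 ± 0.09 (adjusted p = 0.000746) and CDKN2C fell with -1.54 ± 0.21 (adjusted p = 0.000968). The log2 fold change was above 0 for 16 and below for 6, with a median of 0.10, and 7 had an unadjusted p under 0.05. A GADD45G gene (ENSDARG00000016725) did not pass by edgeR. It was called higher under 5 of the 8 other alternatives, DESeq2 among them (0.44, adjusted p = 0.0373), and in 3 of the 12 omissions. Of 16 subunits and activators of the anaphase-promoting complex, 1 fell, FZR1, with -0.23 ± 0.07 (adjusted p = 0.0394). Of 16 cohesin genes, which hold sister chromatids together and also act in resting cells, 0 passed by edgeR, 8 had an unadjusted p under 0.05 and the median was 0.08. The calls of TOB1, CDKN2C and the MYC gene held in each of the 12 omissions, whereas that of FZR1 was lost in 10 of them (adjusted p up to 0.161), that of CDC7 in 9 (up to 0.173) and that of tfdp2 in 5 (up to 0.0968). The call of FZR1 was also lost with RLE scaling (adjusted p = 0.0516), upper-quartile scaling (0.0595), no filter (0.0596) and a replicate block (0.0596), and that of CDC7 with a replicate block (0.0624). At 7 dpf none of the genes in these 7 lists passed by edgeR.

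**Figure D5:**
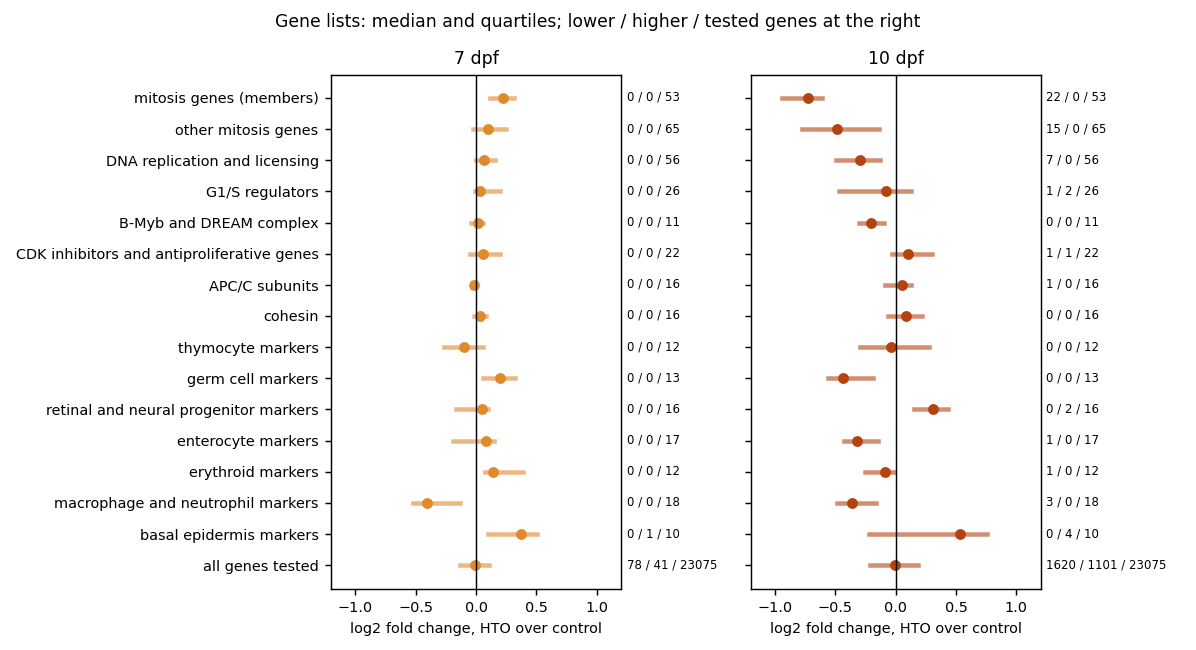
Median (point) and quartiles (bar) of the log2 fold change, HTO over control larvae, at 7 dpf (left) and 10 dpf (right), for the 53 genes, the other gene lists and all genes tested; the numbers give genes that fell, rose and were tested. At 10 dpf the 53 genes have the lowest median (-0.73), followed by the other mitosis genes (-0.48).

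Markers of tissues that hold dividing cells were read in the same libraries, beside the 7.02% of all genes that fell and the 4.77% that rose at 10 dpf. An unadjusted p under 0.05 was found at that age for 6579 of the 23075 genes tested. Of 10 epidermis markers, listed as basal, 4 rose. They were itga6b with 0.76 ± 0.13 (adjusted p = 0.004), krt5 with 0.85 ± 0.16 (adjusted p = 0.00579), krt4 with 0.84 ± 0.18 (adjusted p = 0.0131) and krt15 with 0.75 ± 0.17 (adjusted p = 0.0159). Another 4 had log2 fold changes below 0 and did not pass, among them cdh1 with -0.47 ± 0.15 (adjusted p = 0.0552) and epcam with -0.41 ± 0.13 (adjusted p = 0.0654), the adhesion genes of epithelia, for both of which each exposed library was below each control. That order was found for 18.4% of all genes. The summed levels of the 10 were 4272, 4189 and 3953 CPM in exposed and 2751, 2561 and 2626 CPM in control larvae, a sum that krt4 alone made up for the most part (2834, 2835 and 2608 CPM in exposed and 1609, 1489 and 1519 CPM in control larvae). At 7 dpf 1 of these rose, itga6b, where 0.178% of all genes did. The log2 fold change at that age was above 0 for 8 of the 10, with a median of 0.37, against a median of 0.53 at 10 dpf. An unadjusted p under 0.05 was found at 7 dpf for 6 of them, where 2744 of the 23075 genes tested had one. The difference between the ages was called for 0 of them and had a median of 0.007. Whether the calls and the sum of this list report the basal, dividing layer was not tested. The listed name krtt1c19e matched no gene. Names in the other marker lists without a match were mpeg1.1 and mpx (macrophages and neutrophils) and hbba1, hbba2 and hbbe1.1 (erythroid). The same held for her6, her9 and dla (retinal and neural), ptcra (thymocytes) and aqp8a.1 (enterocytes). Of 18 macrophage and neutrophil markers tested 3 fell (the MFAP4 gene ENSDARG00000038683, ptprc and CORO1A). The log2 fold change was below 0 for 17 of the 18, with a median of -0.36, and 5 had an unadjusted p under 0.05. At 7 dpf 0 of them passed, 16 were below 0 and the median was -0.40. An unadjusted p under 0.05 was found there for 5, where 2744 of the 23075 genes tested had one. The 24 genes of that list, several of which carry the symbol MFAP4, summed to 151, 177 and 228 CPM in exposed and 295, 212 and 218 CPM in control larvae. Of 12 erythroid markers tested 1 fell, the blood factor gata1a, with -2.63 ± 0.50 (adjusted p = 0.00623). The sum over the 14 genes of that list was 58.1, 66.1 and 73.999 CPM in exposed and 69.2, 77.2 and 65.2 CPM in control larvae. Of 16 retinal and neural progenitor markers 2 rose (rx1 and 1 gene listed as HES6), and the sum of the 16 was 323, 259 and 273 CPM in exposed and 222, 252 and 257 CPM in control larvae. Their log2 fold change was above 0 for 14 and below for 2, with a median of 0.31. An unadjusted p under 0.05 was found for 11 of the 16. All exposed libraries lay above all controls for 7, where 15.4% of all genes did, and below for 1, where 18.4% did. None of the 12 thymocyte markers tested passed by edgeR and 3 had an unadjusted p under 0.05. The 14 genes of that list had sums of 93.7, 93.8 and 108 CPM in exposed and 97.5, 97.3 and 102 CPM in control larvae.

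The 17 enterocyte markers summed to 1259, 4769 and 5400.1 CPM in exposed and 5143, 5432 and 5137 CPM in control larvae at 10 dpf. Of these 1 fell (cdx1a), where 7.02% of all genes did. The 14 germ cell markers summed to 6.62, 25.8 and 32.6 CPM in exposed and 31.8, 30.1 and 25.3 CPM in control larvae. Of these 13 were tested, and 0 passed by edgeR. An unadjusted p under 0.05 was found for 1, where 6579 of the 23075 genes tested had one. In both lists exposed replicate 1 was the low library and the other two exposed libraries were near the controls, whereas the mitosis genes were low in all 3. None of the listed markers was at 0 reads in all libraries, and 14 genes of the 14 lists were too low to be tested, among them lyz, cd8a and hbaa1. Some of these calls lay near the threshold. With 1 library left out, the call of CORO1A was lost in 9 of the 12 omissions (adjusted p up to 0.18), that of cdx1a in 8 (up to 0.16), that of HES6 in 6 (up to 0.11), that of rx1 in 3 (up to 0.102) and that of ptprc in 2 (up to 0.1001), exposed replicate 1 and control replicate 1 at 10 dpf among them for each of the 5. The call of cdx1a was also lost with RLE scaling, upper-quartile scaling, the CPM filter and a replicate block (adjusted p 0.0514 to 0.0536), that of CORO1A with no filter, a replicate block and unstranded counts (0.0599 to 0.0862), and that of HES6 with voom (0.0823). The part of any tissue's share of cells in the fall of the mitosis genes was not tested.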

How the data were processed

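Gene-level read counts of 12 libraries of entire zebrafish larvae were used, as the authors deposited them: raw counts per gene in 3 columns per library, made with STAR on build GRCz11 per the submitters' processing notes. Per the labels' protocols, RNA was isolated with TRIzol and chloroform, with no DNase step, and stranded mRNA libraries were read from both ends. The version of STAR is not given in the sources. The reverse-strand column was taken, as 2.24 to 2.55% of gene reads fell on the other strand. The header lines for reads outside genes were dropped (14.4 to 14.8% of reads mapped to several places and 11.3 to 14.5% to no gene). Depth bounds the precision: the 53 genes together held 2939 to 22818 reads per library.

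Symbols came from a table of gene IDs. Genes were kept with filterByExpr (minimum count 10, minimum total 15), scaled with TMM and fitted with edgeR 4.0.16 (R 4.3.3) by robust quasi-likelihood, with a mean for each group and 8 residual degrees of freedom. Two-sided p-values were adjusted by Benjamini-Hochberg over the 23075 genes tested, and 0.05 was the threshold. Each SE was worked back from the test, as the absolute log2 fold change divided by the square root of the F statistic. It is not a separately fitted standard error. CPM used TMM-scaled library sizes, and log2 CPM a prior count of 2. CPM are not corrected for gene length, so levels are not compared between genes. The fits were also run on simulated data, whose outcome is not given here and is not used for any result.

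The members and the 14 further lists were chosen with earlier results of these data known. Values in every library were given for mki67, for genes that pass at 7 dpf or in the difference between ages, and in each role for the 3 genes with the smallest p at 10 dpf. Values of knstrn, ccnb2, bub3 and KIF4A were added after they were seen. From each list up to 3 genes with the smallest p at 10 dpf could be named, and RBL2, krt15, cdh1 and epcam were named after their values were seen. The neural marker dld was left out, also after its value was seen, because the only symbol it matched, DLD, is that of a metabolic enzyme gene. The alternatives were RLE and upper-quartile scaling, no filter, a filter of 1 CPM in 3 libraries, a replicate block, unstranded counts, exact names only, DESeq2 1.42.0, voom (limma 3.58.1) with sample weights, and leaving out each library in turn. Gene positions and promoter sequences were not used here. Figures were drawn with matplotlib 3.10.9.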

Additional observations from a re-analysis of the deposited data

Results flagged for a closer look

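For 5 genes the effect of exposure at 10 dpf differed from that at 7 dpf by edgeR's test of the difference itself, over 3 libraries in each of the 4 groups. The difference was -1.69 for kif11, -1.20 for mki67, -1.19 for tpx2, -1.50 for top2a and -1.004 for cdc20, each as the 10 dpf log2 fold change minus that at 7 dpf. In all 5, each exposed library was below each control library at 10 dpf, as for 18.4% of all genes, and the groups overlapped at 7 dpf. The 5 were picked by a test on these same libraries, so this order describes them and adds no support. The calls of top2a and cdc20 were lost with a replicate block (adjusted p = 0.11 and 0.102), and that of cdc20 also with no filter (0.0572). All 5 calls were lost when exposed replicate 1, exposed replicate 3 or control replicate 2 at 7 dpf was left out, with adjusted p between 0.0526 and 0.123 and differences between -1.72 and -1.02. Over the 12 omissions the call of cdc20 was lost in 11, all but that of control replicate 1 at 7 dpf (adjusted p 0.0786 to 0.134), and that of top2a in 10, all but that library and exposed replicate 1 at 10 dpf (0.0514 to 0.105). The calls of tpx2, kif11 and mki67 were lost in 5, 4 and 3 of the 12.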

How the results depend on the processing

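The median of the mitosis genes at 10 dpf stayed below 0 throughout: 20 to 28 of the 53 genes fell under the alternatives in scaling, filter, strand, matching and tool, 0 rose, and the median lay between -0.73 and -0.69 (-0.85 to -0.62 with 1 library left out). With 1 library left out the count ranged from 13, without control replicate 1 at 10 dpf, to 31, without control replicate 3 at 7 dpf. Calls over all genes were also fewest and most in these omissions. Of the 22 genes, 13 were called in every alternative and every omission. At 7 dpf 0 members rose and 0 fell in each alternative and omission. For the difference between ages, DESeq2 called 17 members and voom 11, against 5 by edgeR, and omissions gave 0 to 9. With age, 29 to 48 members fell in control larvae and 50 to 52 in exposed larvae over the omissions. No scaling moved the median of all genes by more than 0.04.

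Over all genes, 119 were called at 7 dpf, against 62 with a replicate block, 595 with DESeq2, 447 with voom and 12 to 831 over the omissions. For the difference between ages 62 were called, against 22 with a replicate block, 280 with DESeq2, 152 with voom and 10 to 63 over the omissions. At 10 dpf 2721 were called, and 1153 to 3118 over the omissions; with age these were 5044 to 7890 in control and 3722 to 5421 in exposed larvae. Signs turned for 4 members at 10 dpf. The gene foxm1 had 0.092 with unstranded counts. For ccnb2 the value was -0.12 without exposed replicate 1 and -0.098 without control replicate 3. For plk4 it was 0.022 without exposed replicate 2 and 0.074 without control replicate 1. For kif18a it was 0.017 without exposed replicate 2 and 0.016 without control replicate 3. Over all omissions ccnb2 ranged from -0.12 to 0.58, plk4 from -0.096 to 0.074 and kif18a from -0.24 to 0.017. The cause was not tested.

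Same-numbered exposed and control libraries did not deviate together (r -0.158, 0.065 and 0.043 at 7 dpf, and -0.2, -0.041 and -0.17 at 10 dpf, for replicates 1, 2 and 3), so the numbers were not read as pairs. Between the 2 ages, same-numbered libraries had r of 0.224, 0.043 and 0.183 in control larvae, all above 0, and 0.076, 0.165 and -0.14 in exposed larvae. With the replicate block 21 members fell at 10 dpf and 4 were called for the difference between ages. With age, 43 members fell in control and 51 in exposed larvae under that block, against 44 and 51 without it.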

Other observations

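Among the named genes outside the set that were ranked, those most like its mean over the 12 libraries were KPNA2 (r = 0.989), chaf1a (0.988), WDHD1 (0.988), RRM2 (0.986), KIF4A (0.986), hmga1a (0.982), ASPM (0.982), IQGAP3 (0.981), RRM1 (0.981) and kif15 (0.980). Genes without a symbol and clone or locus names were left out of the ranking. So were all symbols that open with the same letters, such as CR, CU or FO, and repeats of a symbol. The r is Pearson's, between a gene's log2 CPM and the mean of the members' standardized log2 CPM, and its median over all genes tested was 0.004. It is a description, since all points share the ages and the exposure.

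At 4 members more reads lay on the opposite strand than on the strand counted: ska3 (96.7% of the reads on either strand, over the 12 libraries), spc25 (83.6%), racgap1 (59.2%) and foxm1 (54.9%). At 10 dpf the opposite strand of racgap1 held 114, 259 and 188 reads in exposed larvae and 268, 285 and 143 in control larvae. These are raw reads, from libraries of 28.6, 57.4 and 40.0 M reads on genes in exposed larvae and 52.7, 48.7 and 31.9 M in control larvae. What is transcribed there was not tested.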
